A study of Homo sapiens with 22 samples.

Results

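Cluster 10 was a small group of untreated WM989 melanoma cells in which regulators and markers of the amino acid stress response stood far above their level in the other non-primed cells. Its members were the 466 cells that carry the number 10 in the cluster label the authors deposited for each cell, out of 12531 cells of untreated WM989 and 54001 cells in the 3 single-cell experiments of the series. The authors' state label put the whole cluster among the 9688 non-primed cells of untreated WM989, of which the other 9222 lay in clusters 0, 1, 3, 4, 5, 6 and 7. The remaining 2843 cells lay in clusters 2, 8 and 9 and were labelled primed.

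WM989 is an established human melanoma line with a mutant BRAF gene, and the study used a clone of it (WM989 A6-G3) that had been passed through single cells, so all cells compared here descend from 1 clone and carry the same BRAF mutation. The cells had received no drug. They carried a lentiviral lineage barcode that is transcribed and read out with the RNA. Cells sorted for high surface EGFR and NGFR were cultured beside a sorted mixed population, so that primed cells could be followed with their relatives. Primed cells survive BRAF inhibition more often, and by the paper EGFR and NGFR are each expressed in only a part of them. The cell labels give 8 wells, which are 10x lanes, 4 in replicate r1 and 4 in replicate r2, and they do not give the sort. All wells belong to 1 deposited sample. Each culture was split over 2 lanes, so some wells share a culture and others differ in culture or sort, and the spread between wells is in part technical and in part between cultures. The other samples used here are 1 library of untreated WM983B, a second melanoma line, and 8 libraries of WM989 labelled Control, PI3Ki, TGFB1 and TGFBRi (a control, a PI3K inhibitor, the ligand TGFB1 and an inhibitor of its receptors). Each treatment has 1 deposited sample named Mix and 1 named Primed, so the 2 libraries of a treatment may differ in their sort. The paper's account of this experiment describes replicates that were each divided over the treatments, and it names no sort of primed cells. The cell labels give only r1 and r2 and were not matched to these names.

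Cells that run short of an amino acid, or that meet stress in the endoplasmic reticulum, phosphorylate the initiation factor eIF2 alpha, which lowers translation in general and raises translation of the transcription factor ATF4. ATF4 pairs with C/EBP proteins and activates genes for amino acid synthesis, amino acid uptake and tRNA charging, together with the regulators DDIT3 (CHOP), TRIB3 and NUPR1. Under lasting stress the same pathway can induce pro-apoptotic genes, among them BBC3 (PUMA). In melanoma, ATF4 activity is known to go together with lower MITF and slower division.

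The DNA element that ATF4 and C/EBP proteins recognise is shown first, because several genes that were high in cluster 10 carry it next to their start. RefSeq promoter windows of GRCh38.p14, each 250 bases before to 50 bases after a transcription start, were searched on both strands for TGATGNAA, which reads TTNCATCA on the other strand. The element was present in 1217 of 27305 genes with a window (4.46%). Among the 6 marker genes of the cluster (ASNS, DDIT3, TRIB3, NUPR1, BBC3 and SLC7A11), 4 had a window and ASNS held the element. Of the 15 genes in the list of ATF4 stress regulators, 14 had a window, and ATF3, CEBPG, CHAC1 and JDP2 held it. These 5 sites are printed below with 3 sites of other genes that were at least 2-fold higher in cluster 10, namely SLC3A2, GARS1 and CARS1 (GARS and CARS in the count table). These 3 were picked for their high ratio. Genes of amino acid synthesis, uptake and tRNA charging that were not 2-fold higher held the element too. They were MTHFD1L, GOT1, SLC7A1, SLC1A4, SLC1A5, AARS1, MARS1, NARS1, IARS1 and TARS1, with ratios from 1.11 (IARS1) to 1.52 (AARS1). The printed sites therefore do not show how often the element goes with a high ratio. Each line gives 30 bases of the gene's own strand, 5′ to 3′, with the element in capitals.
ASNS: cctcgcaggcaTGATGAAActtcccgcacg
ATF3: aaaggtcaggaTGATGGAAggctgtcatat
CEBPG: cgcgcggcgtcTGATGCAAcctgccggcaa
JDP2: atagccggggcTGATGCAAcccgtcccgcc
CHAC1: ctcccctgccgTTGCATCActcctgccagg
SLC3A2: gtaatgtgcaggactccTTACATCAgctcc
GARS1: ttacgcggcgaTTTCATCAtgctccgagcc
CARS1: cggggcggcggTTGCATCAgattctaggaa

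The ASNS stretch lies at chr7:97872458-97872487 on the minus strand, and the element begins 68 bases before the transcription start of its window. The CEBPG stretch lies at chr19:33374060-33374089 on the plus strand, in an intron by GENCODE v44, with the element 42 bases before a start. ATF3 (chr1:212565205-212565234, plus strand) has its element 191 bases before the start, outside the annotated gene. The JDP2 (chr14:75427995-75428024, plus), CHAC1 (chr15:40953251-40953280, plus), SLC3A2 (chr11:62881719-62881748, plus), GARS1 (chr7:30594834-30594863, plus) and CARS1 (chr11:3057407-3057436, minus) stretches overlap an exon of the same gene in at least 1 annotated transcript, as does that of ASNS. ASNS, ATF3, CEBPG and JDP2 read the element on the gene's strand, and CHAC1, SLC3A2, GARS1 and CARS1 on the opposite strand.

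Cluster 10 was found in both replicates, and its share differed between them. It made up 4.81% of the non-primed cells (exact 95% binomial interval 4.39 to 5.26), with 368 of 5886 cells in r1 (6.25%) and 98 of 3802 in r2 (2.58%). By well, the share of non-primed cells was 1.03%, 2.50%, 8.68% and 6.20% in wells 1 to 4 of r1, from 2, 16, 128 and 222 cells. In r2 it was 0 of 83 cells in well 5, which allows a share of up to 3.61% (a limit of 3 counts; the exact two-sided interval reaches 4.35%), and 1.49%, 2.58% and 2.80% in wells 6, 7 and 8, from 2, 50 and 46 cells. Wells 3 and 4 thus held 350 of the 466 cells, and their intervals lay above those of wells 7 and 8. These intervals cover counting error only, and wells 3 and 4 may be lanes of 1 culture, as may wells 7 and 8. Wells 1, 2, 5 and 6 were mostly primed cells and held few non-primed cells. Values by well are therefore given for the 5 wells with at least 10 cells of the cluster, which are wells 2, 3 and 4 of r1 and wells 7 and 8 of r2. Well 2 contributed 16 cells and stood apart in several genes.

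**Figure D1:**
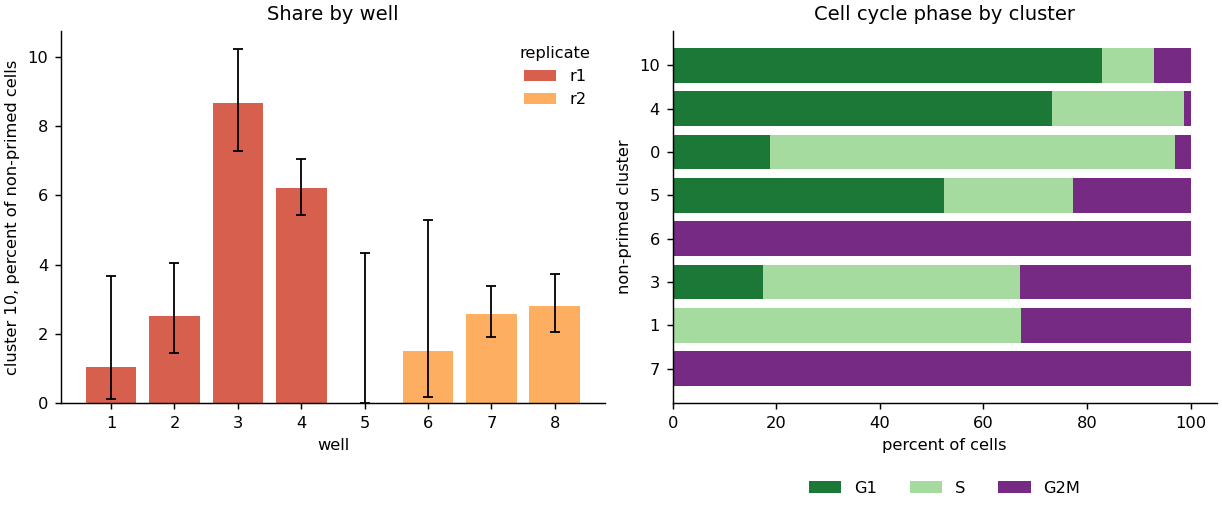
The left panel plots the share of non-primed cells that lay in cluster 10 in each of the 8 wells, coloured by replicate, with exact 95% intervals for counting error. The right panel plots the percent of cells called G1, S and G2M in each non-primed cluster. Wells 3 and 4 have the highest shares, at 8.68% and 6.20%, and cluster 10 has the highest share of G1 calls, at 82.8%.

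Each cell was sequenced deeply. Cluster 10 held 24085381 UMIs, with a median of 45488.5 per cell, and the other non-primed clusters 534415765 UMIs, with a median of 53120. The lowest of all non-primed cells had 12509 UMIs, so the markers could be read in single cells. A cell barcode seen in 2 wells occurred in 38 of the 12531 cells, and 2 of these were in cluster 10. Markers of other cell types (PTPRC, CD3E, CD79A, LYZ, PECAM1, EPCAM, KRT5, KRT14, HBB and ALB) summed to 1.12 CPM (counts of a gene per 1000000 UMIs) in cluster 10 and 1.27 in the other non-primed cells, with 5 of the 10 at 0 in cluster 10. The melanocytic genes that define the line were present, with PMEL at 2938 CPM, MLANA at 1743 CPM and SOX10 at 123 CPM.

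The markers checked the label first. All 6 were at least 3.9-fold higher in cluster 10 than in the pooled other non-primed cells, and for all 6 the lowest of the 5 wells of cluster 10 lay above the highest of the 5 wells of other non-primed cells. The clusters were called on the expression of these cells, so these values describe the cluster and were not tested. Of all genes that reached 20 CPM in cluster 10 or in the reference, 6.59% stood above without overlap in the same way, and 1.72% were at least 2-fold higher in cluster 10.

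ASNS makes asparagine from aspartate and glutamine (chr7:97851677-97872542, minus strand, hg38). In cluster 10 it stood at 31.2, 120, 118, 180 and 149 CPM in wells 2, 3, 4, 7 and 8. In the other non-primed cells of the same wells it stood at 11.9, 22.2, 21.8, 23.5 and 25.2 CPM. Well 2 was low in both groups, and the remaining 4 wells of cluster 10 were all above 100 CPM. Pooled over cells, the levels were 125 and 21.6 CPM, a ratio of 5.79, with 5.60 in r1 and 7.06 in r2.

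TRIB3 encodes a pseudokinase that is induced by ATF4 and DDIT3 and restrains ATF4 in turn (chr20:362835-397559, plus strand). Its levels in cluster 10 were 104, 165, 160, 167 and 182 CPM, against 20.8, 34.9, 29.2, 28.2 and 28.4 CPM in the other non-primed cells. Well 2 was the lowest of cluster 10 and stood apart from the other 4 wells. Among the 6 markers the ratio of TRIB3 still varied least between wells, with an SD of 0.18 for the log2 ratio over the 5 wells. Pooled over cells it was 5.61-fold higher (5.37-fold for r1, 6.15-fold for r2).

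DDIT3 encodes CHOP, a transcription factor of the C/EBP family that acts downstream of ATF4 (chr12:57516588-57521737, minus strand). It stood at 381, 228, 272, 163 and 186 CPM in cluster 10 and at 43.9, 40.3, 41.6, 50.1 and 49.6 CPM in the other non-primed cells. All 3 wells of r1 were higher than both wells of r2 in cluster 10, while the other non-primed cells ran the opposite way. The ratio was 5.41 over both replicates, 6.25 in r1 and 3.52 in r2.

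NUPR1 encodes a small stress-induced nuclear protein (chr16:28532708-28539008, minus strand). Cluster 10 had 441, 170, 157, 192 and 136 CPM in the 5 wells, and the other non-primed cells 41.2, 50.3, 45.5, 21.6 and 21.0 CPM. Well 2 was far above the rest, and without it the pooled ratio of 4.83 became 4.54. In cluster 10 the replicates were alike at 178 CPM in r1 and 168 CPM in r2. The other non-primed cells had 46.3 CPM in r1 and 21.0 CPM in r2, which gives ratios of 3.85 and 8.01.

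BBC3 encodes PUMA, a BH3-only protein that promotes apoptosis (chr19:47220822-47232766, minus strand). It had the highest ratio of all genes at 20 CPM, 8.32, and the most uneven wells of the 6 markers. Wells 3 and 4 of cluster 10 stood at 109 and 100 CPM, while wells 2, 7 and 8 stood at 14.7, 23.2 and 17.9 CPM. The other non-primed cells ranged from 6.11 to 12.8 CPM. Replicate r1 gave a ratio of 8.22 and r2 one of 3.24, and the mean over the 5 wells, 2.04 on the log2 scale with an SD of 1.01, corresponds to a ratio of 4.11. The pooled value exceeds both replicates and 368 of the 466 cells of cluster 10 came from r1, where BBC3 was higher in both groups, against 5518 of the 9222 reference cells.

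SLC7A11 encodes the light chain of the cystine and glutamate exchanger (chr4:138164097-138242349, minus strand). It ran opposite to BBC3 across replicates, with 65.1, 44.7 and 49.9 CPM in wells 2, 3 and 4 and 161 and 145 CPM in wells 7 and 8 of cluster 10. The other non-primed cells showed the same step, with 5.56, 11.5 and 11.5 CPM in r1 and 33.6 and 31.9 CPM in r2. The ratios within replicates were therefore close, at 4.62 in r1 and 4.99 in r2, and both exceeded the pooled ratio of 3.92.

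**Figure D2:**
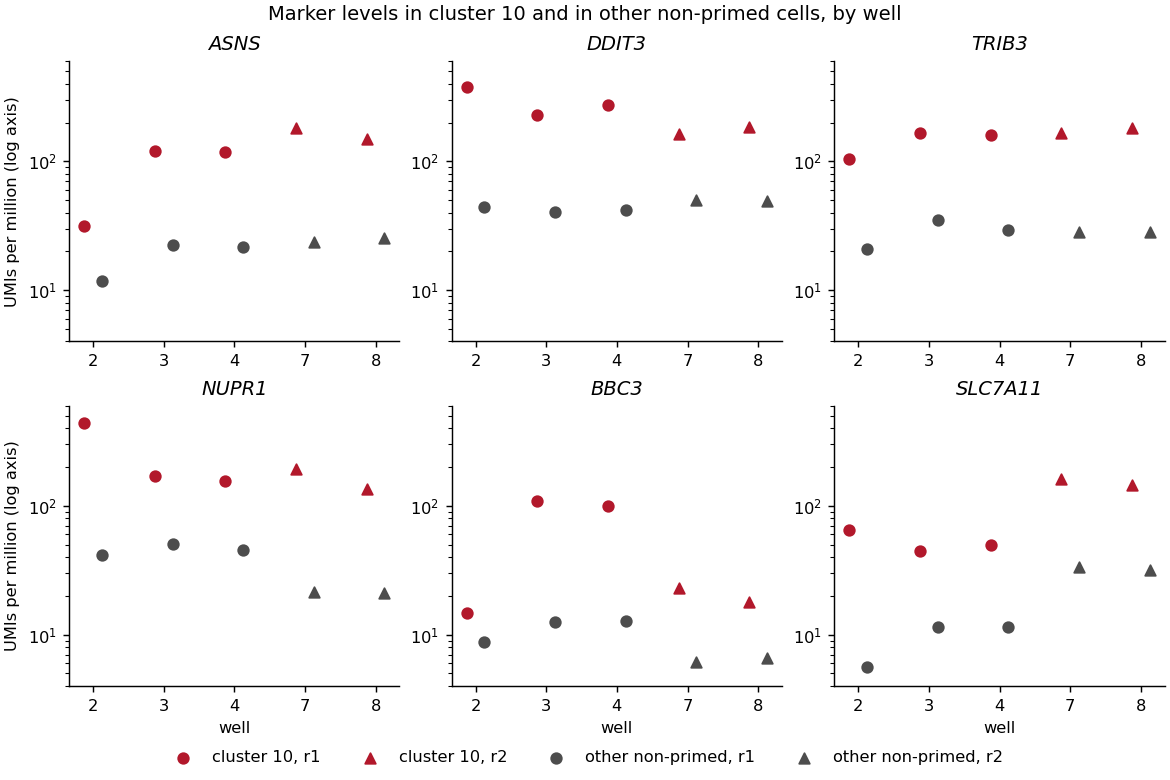
Each panel plots 1 marker in CPM on a log axis in the 5 wells with at least 10 cells of cluster 10, for cluster 10 in red and the other non-primed cells in grey. Circles are wells of replicate r1 and triangles wells of r2. The red points lie above all grey points in every panel, BBC3 is at 109 and 100 in wells 3 and 4 against 23.2 and 17.9 in wells 7 and 8, and SLC7A11 is higher in r2 in both groups.

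The other non-primed clusters had low and even levels of most markers. ASNS ranged from 14.7 CPM in cluster 3 to 25.0 CPM in cluster 6 over the other 7, TRIB3 from 22.1 to 33.4 CPM and SLC7A11 from 14.3 to 21.1 CPM. DDIT3 was the exception, with 110 CPM in cluster 6, a cluster in which 99.7% of cells were called G2M. The level of DDIT3 in cluster 10 was 2.16 times that of cluster 6, while for the other 5 markers it was at least 2.87 times the highest other non-primed cluster. NUPR1 was next highest among non-primed clusters in cluster 4, at 61.3 CPM. In primed cells NUPR1 stood at 74.5 CPM and TRIB3 at 58.3 CPM, above the pooled other non-primed cells but below cluster 10, and the other 4 markers were at 7.71 to 48.0 CPM.

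**Figure D3:**
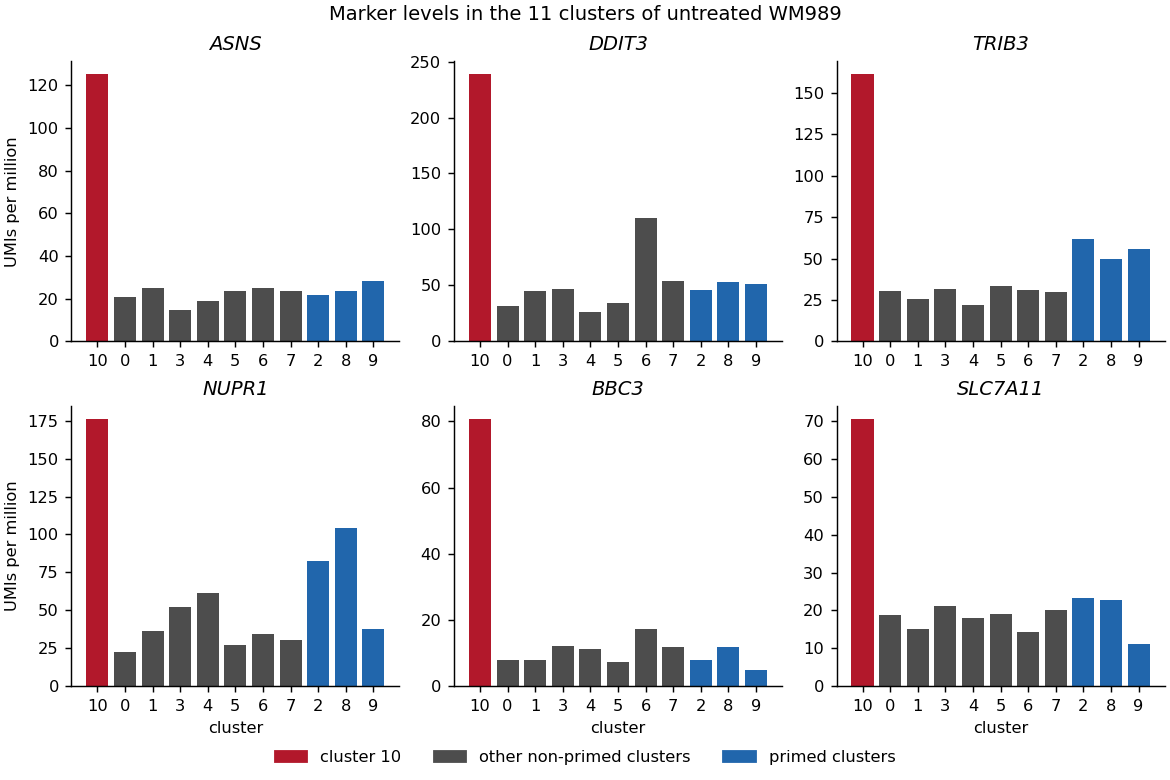
Bars give each marker in CPM, summed over the cells of each of the 11 clusters of untreated WM989, on linear axes that start at 0. Cluster 10 is the tallest bar in all 6 panels, cluster 6 is second for DDIT3 at 110, and the primed clusters 8 and 2 follow for NUPR1 at 104 and 82.3.

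Cells of cluster 10 often held several of the markers. The clusters were called on expression of the same cells, and each marker was also detected more often on its own. A higher share of cells with several markers follows in part from that, and joint detection beyond the single rates was not tested. After every cell was thinned to 10000 UMIs, 226 of the 466 cells of cluster 10 had at least 1 UMI of 4 or more markers (48.5%, 43.9 to 53.1), against 223 of 9222 other non-primed cells (2.42%) and 135 of 2843 primed cells (4.75%). Before thinning the median depths were 45488.5, 53120 and 58253 UMIs. No cell was too shallow to be thinned. In cluster 10, 9 cells had none of the 6 markers and 15 had all 6. The median cell of cluster 10 had 7 marker UMIs in its 10000, and the median other non-primed cell had 1. The share with at least 4 markers reached 49.7% for r1 and 43.9% for r2, closer together than most single markers.

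DDIT3 was the marker detected in most thinned cells of cluster 10, at 74.2%, followed by TRIB3 at 62.4%, ASNS at 60.1%, NUPR1 at 58.4%, BBC3 at 43.3% and SLC7A11 at 35.8%. In the other non-primed cells these shares were 29.4%, 23.2%, 17.6%, 23.7%, 9.29% and 13.0%. Within the cluster, counts of ASNS and TRIB3 had a Spearman correlation of 0.36 over the 466 cells and those of DDIT3 and TRIB3 of 0.32, while BBC3 and SLC7A11, which step in opposite directions between replicates, had −0.18 over all cells, −0.13 within r1 and −0.11 within r2. The 15 pairs of markers ranged from −0.18 to 0.36 in cluster 10, from −0.13 to 0.33 in its r1 cells, from −0.18 to 0.46 in its r2 cells, and from −0.017 to 0.090 in the other non-primed cells. The cells share libraries, and these values at 10000 UMIs are descriptions.

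**Figure D4:**
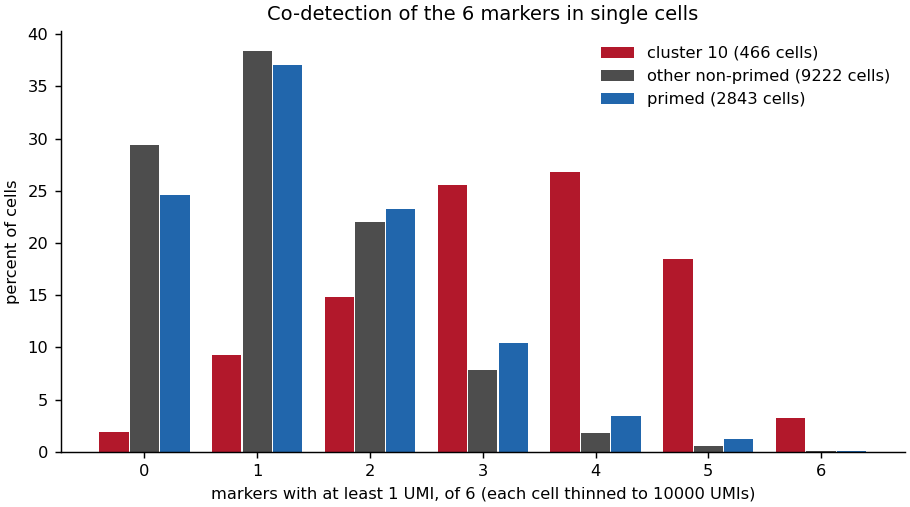
The plot gives, for each number of markers from 0 to 6, the percent of cells in which exactly that many had at least 1 UMI after thinning to 10000 UMIs, for 466 cells of cluster 10, 9222 other non-primed cells and 2843 primed cells. Most cells of cluster 10 had 3, 4 or 5 markers, and most other cells had 0, 1 or 2.

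Cluster 10 was mainly in G1. By the authors' phase calls 82.8% of its cells were in G1 (79.1 to 86.1), 10.1% in S and 7.08% in G2M, against 22.6%, 46.1% and 31.3% in the other non-primed cells. By well, the G1 share of cluster 10 was 87.5%, 85.9%, 86.0%, 74.0% and 67.4% in wells 2, 3, 4, 7 and 8. It did not overlap with the other non-primed cells, where the 5 wells ranged from 18.7% to 29.9%. Cluster 4, the non-primed cluster most like cluster 10 (Spearman correlation of CPM 0.93 over 5876 genes), was 73.3% G1. Phase calls come from expression scores of the same cells and so are not independent of the clusters. The markers were high in every phase. ASNS was 5.78-fold higher in cluster 10 among G1 cells, 6.22-fold among S cells and 5.20-fold among G2M cells. The lowest ratio of any marker in any phase was 3.02, for SLC7A11 in G2M. BBC3 reached 168 CPM in the 33 G2M cells of the cluster, against 76.3 CPM in its 386 G1 cells.

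The cells of cluster 10 held fewer UMIs. The median was 65298, 65380.5, 38983.5, 44428 and 44634.5 UMIs in wells 2, 3, 4, 7 and 8, against 72780, 80266, 46570.5, 54454 and 48407 in the other non-primed cells of the same wells. The cluster was lower in 5 of 5 wells, by a mean of −0.22 ± 0.08 on the log2 scale (SD, n = 5 wells; two-sided exact sign-flip permutation test over wells, p = 0.0625, adjusted over 2 tests 0.125). With 5 wells this test cannot give a p below 0.0625. Wells that share a culture are not independent, and the labels do not give which do. Wells 3, 4, 7 and 8 held few primed cells (126 of 1601, 263 of 3841, 196 of 2137 and 171 of 1815). As each culture was split over 2 lanes, wells 3 and 4 may share a mixed culture, as may wells 7 and 8. This p and the one for barcodes therefore cover the spread between wells and are too small as a measure of the spread between cultures. When the reference in each well was weighted to the phases of the cluster, the mean difference was −0.06 (exact permutation p = 0.188). Cells of cluster 10 expressed 6197 genes at the median against 6830, and 2852 against 3035 after thinning to 10000 UMIs. Cluster 4 was alike, with medians of 45304.5 UMIs, 6258.5 genes and 2848 genes after thinning.

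A lineage barcode was read in 93.8% of cells of cluster 10 and 94.2% of the other non-primed cells. Any lineage UMI counted here, and the lineage filters that the paper describes were not applied. The paper reports fewer cells with barcodes, so these shares are not those of cells with an assigned lineage. By well the shares in cluster 10 were 68.8%, 96.1%, 95.5%, 92.0% and 89.1%, against 82.5%, 97.1%, 95.1%, 95.0% and 94.4%. The difference was negative in 4 of 5 wells, with a mean of −4.55 ± 5.57 percentage points (SD, n = 5 wells; two-sided exact sign-flip permutation test, p = 0.125, adjusted 0.125). It did not exceed the spread between wells, and well 2 alone, with 16 cells, accounted for much of it. Without that well the mean was −2.25 points.

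Cells of cluster 10 gave a smaller part of their UMIs to mitochondrially encoded genes. The median percent.mt was 9.57%, 11.7%, 12.0%, 7.21% and 7.16% in wells 2, 3, 4, 7 and 8 of cluster 10, against 14.9%, 15.2%, 16.1%, 12.0% and 11.7% in the other non-primed cells, lower in each of the 5 wells. Of the 13 mitochondrially encoded messenger RNAs, 11 were lower than in the other non-primed cells, and MT-ATP6, MT-CO3 and MT-ND3 were at least 2-fold lower. Ribosomal protein genes went the other way, with 72 of 81 above the other non-primed cells, against 2516 of all 5876 genes tested. Their median log2 ratio was 0.25, and none passed 2-fold. The median percent.rb was 11.6% in cluster 10 and 9.51% in the other non-primed cells, but 11.1% in cluster 4, and the ribosomal median over cluster 4 was 0.07.

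Beyond the markers, 101 of the 5876 genes that reached 20 CPM were at least 2-fold higher in cluster 10 and 219 (3.73%) were at least 2-fold lower. Of the 101, 53 reached 20 CPM in cluster 10 alone, so that a gene this low in the reference was compared only where cluster 10 was high. In the lists below these are BBC3, SESN2, CEBPG, SLC7A11, VEGFA, DNAJB9, GADD45A, HRK, OSGIN1, GABARAPL1 and MAFF, and the counts that hold them follow in part from this minimum. Of the 219 lower genes, 126 likewise reached 20 CPM in the reference alone. With the reference weighted to the phases of cluster 10, 82 of 5674 genes were at least 2-fold higher (1.45%) and 29 were at least 2-fold lower (0.511%). Against cluster 4 alone, 141 of 5670 genes were at least 2-fold higher (2.49%). The median log2 ratio over all genes tested was −0.07, and the lists below are read beside that value.

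Most regulators of the ATF4 pathway that could be compared were at least 2-fold higher than in the other non-primed cells. Summed over the 15 listed genes, they stood at 1695 CPM in cluster 10, 538 CPM in the other non-primed cells and 1335 CPM in primed cells. A high sum was thus not particular to cluster 10. Of 15 genes in this list 11 were at 20 CPM, 10 of them were at least 2-fold higher and none was 2-fold lower, with a median log2 ratio of 1.55. Of these 10, BBC3, TRIB3, DDIT3 and NUPR1 are markers of the cluster, and BBC3, SESN2 and CEBPG reached 20 CPM in cluster 10 alone. The count and the median of this list, here and below, thus rest in part on genes picked as high in cluster 10 or compared only because of it. The median was 1.61, 1.41, 1.48, 1.76 and 1.46 in wells 2, 3, 4, 7 and 8. ATF4 itself stood at 372 CPM against 127 CPM, a log2 ratio of 1.55, with 1.52 in r1 and 1.69 in r2. Besides 4 of the markers, the list held SESN2, an inhibitor of mTORC1 signalling (log2 ratio 1.67), DDIT4, another inhibitor of mTORC1 (1.45), CEBPG, a C/EBP partner of ATF4 (1.40), PPP1R15A, the phosphatase subunit that reverses eIF2 alpha phosphorylation (1.21), and CEBPB (1.13). ATF5 was the exception at 15.6 CPM against 25.5 CPM, a log2 ratio of −0.71 with −0.96 in r1 and −0.07 in r2. Of the 4 genes under 20 CPM, ATF3 stood at 13.7 against 1.70 CPM and JDP2 at 9.88 against 2.95 CPM, both without overlap between wells, the remaining one was at 11.8 against 9.41 CPM, and CHAC1 had 6 UMIs in the whole cluster. Of the printed elements of markers and regulators, those of ASNS, CEBPG, ATF3 and JDP2 belong to genes with higher counts in cluster 10. That of CHAC1 belongs to a gene that was hardly counted in either group. The elements of SLC3A2, GARS1 and CARS1 were printed because these genes were high.

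**Figure D5:**
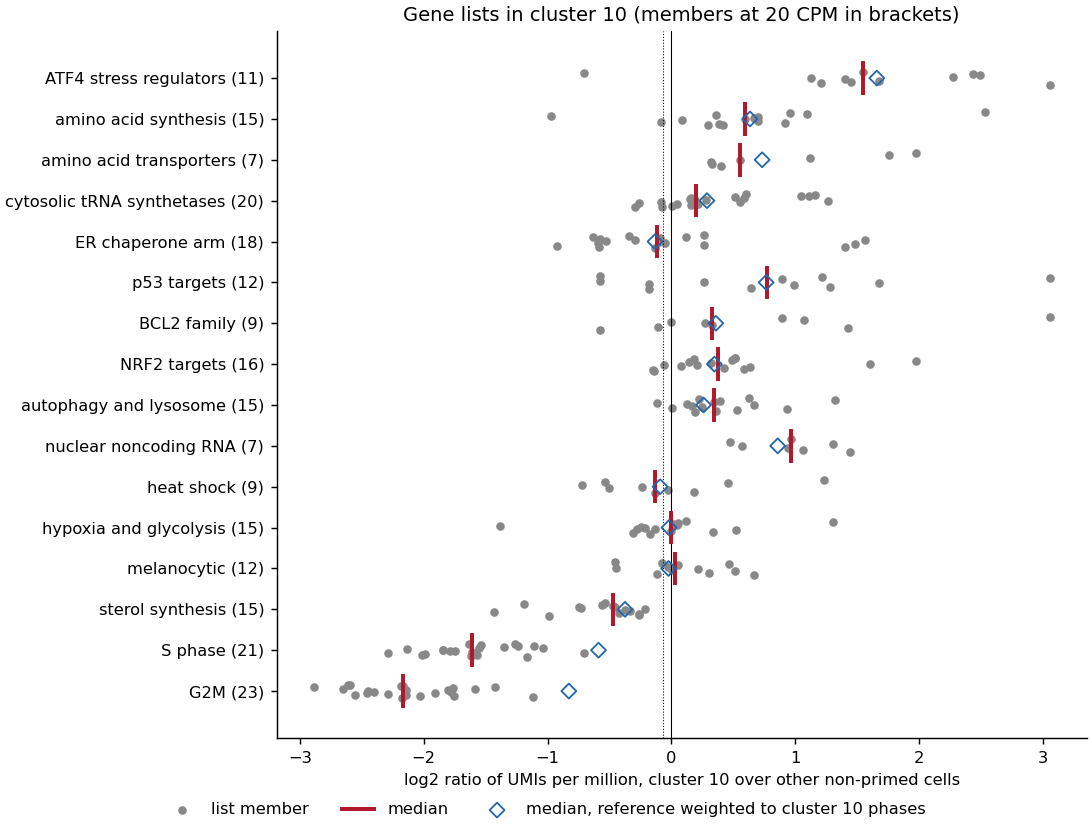
Each grey point is a gene of the list named at left that reached 20 CPM, placed at its log2 ratio of CPM in cluster 10 over the other non-primed cells. Red bars are list medians, open diamonds are the medians when the reference cells were weighted to the phases of cluster 10, and the dotted line is the median of all genes tested, −0.07. The ATF4 list stands at 1.55 and hardly moves with the weighting, while the S phase and G2M lists move from −1.61 and −2.17 to −0.59 and −0.83.

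Genes of amino acid synthesis lay above the reference by smaller amounts. Over all genes tested, 2516 of 5876 lay above it at all, and the counts of genes above the reference given here and below are read beside that share. Of the 15 tested genes of the list, 13 were above the reference (median log2 ratio 0.59), and ASNS and PSAT1 passed 2-fold. In the serine pathway, PHGDH, its first enzyme, stood at 340 against 175 CPM (log2 ratio 0.96), PSAT1, which follows it, at 86.7 against 40.5 CPM (1.10), and PSPH, which completes it, at 38.4 against 29.9 CPM (0.36). The mitochondrial enzymes of one-carbon metabolism SHMT2 (0.70), MTHFD2 (0.67) and MTHFD1L (0.59) lay above the reference in 5 of 5 wells, while SHMT1, the cytosolic form, was lower in 5 of 5 wells at 16.2 against 31.9 CPM (−0.98). GPT2, the mitochondrial alanine transaminase, had a log2 ratio of 0.92 and PYCR1, which makes proline, 0.70. CTH, which makes cysteine from cystathionine, was under 20 CPM at 16.6 against 3.56 CPM.

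All 7 tested amino acid transporters lay above the reference, with a median of 0.55, and 3 passed 2-fold, of which SLC7A11 is a marker. SLC3A2, the heavy chain that pairs with SLC7A11 and SLC7A5, stood at 451, 422, 421, 459 and 527 CPM in wells 2, 3, 4, 7 and 8 of cluster 10, against 104, 128, 112, 147 and 144 CPM in the other non-primed cells. The groups lay far apart in every well, the pooled ratio being 3.38 (3.60 for r1, 3.26 for r2). SLC7A5, the light chain that imports leucine, was at 75.5 against 34.8 CPM (log2 ratio 1.12), SLC7A1, which carries cationic amino acids, had 0.55, SLC38A2 0.40, SLC1A5 0.32 and SLC1A4 0.32.

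Cytosolic tRNA synthetases ranged from 2-fold higher to slightly below the reference. Of 20 genes, 16 were above the other non-primed cells with a median of 0.20, and 4 passed 2-fold, namely CARS for cysteine (65.1 against 27.1 CPM, log2 ratio 1.26), GARS for glycine (157 against 70.2 CPM, 1.16), WARS for tryptophan (86.3 against 39.9 CPM, 1.11) and SARS for serine (130 against 63.0 CPM, 1.05). For these 4 the wells did not overlap. AARS (0.60), EPRS (0.59), YARS (0.56) and MARS (0.51) came next, whereas HARS (−0.26), FARSA (−0.29), VARS (−0.08) and FARSB (−0.08) lay below the other non-primed cells. The promoter element was found in 7 of the 16 synthetase genes with a window, AARS1, CARS1, GARS1, IARS1, MARS1, NARS1 and TARS1. Their log2 ratios ranged from 0.15 for IARS to 1.26 for CARS. In the whole table, 12 of 122 tested genes with the element in a window were at least 2-fold higher in cluster 10 (9.84%). Of 4638 tested genes with windows that lack it, 63 were (1.36%), and 1116 tested genes had no window. Over all tested genes the median log2 ratio was 0.13 with the element and −0.08 without it. Of the 75 higher genes with a window, 12 held the element (16%). The 12 include the marker ASNS, and CEBPG, which reached 20 CPM in cluster 10 alone. These shares thus depend in part on how genes were picked, and they were not tested.

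Among secreted factors of the stress response, GDF15, which reduces appetite through the hindbrain, stood at 232 against 99.8 CPM (log2 ratio 1.22) and VEGFA, which drives vessel growth, at 24.1 against 9.77 CPM (1.30), under 20 CPM in the reference. The other 7 of the 9 listed genes were under 20 CPM. Of the kinases that phosphorylate eIF2 alpha, 3 reached 20 CPM and none of these passed 2-fold. EIF2AK4 (GCN2), which senses uncharged tRNA, was at 106 against 128 CPM, and EIF2AK1 and EIF2AK2 had log2 ratios of 0.04 and 0.00. EIF2AK3 (PERK), the kinase of the endoplasmic reticulum, was under 20 CPM at 5.31 against 4.23 CPM. EIF4EBP1, a translation repressor that ATF4 activates, was at 497 against 292 CPM (0.77), without overlap between wells.

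The chaperones of the endoplasmic reticulum did not follow the ATF4 list. Of 18 tested genes, 12 were below the other non-primed cells, with a median of −0.11, close to the −0.07 of all genes. By replicate, 7 genes were above in both r1 and r2 and 7 below in both, with medians of −0.09 in r1 and 0.02 in r2. HSPA5 (BiP), the main chaperone of the compartment, was at 203 against 169 CPM (log2 ratio 0.26), CALR at 391 against 607 CPM (−0.63) and CRELD2 at 49.5 against 93.8 CPM (−0.92). DNAJB9 (1.56), HERPUD1 (1.48) and XBP1 (1.41) were nevertheless at least 2-fold higher without overlap between wells. None of the 10 tested mitochondrial chaperones or proteases passed 2-fold in either direction, and HSPE1 had the lowest log2 ratio, −0.83.

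Of 12 tested genes in the p53 list, 8 lay above the other non-primed cells. The median of the list was 0.77 on the log2 scale, and it was also 0.77 with the phase-weighted reference and 0.99 over cluster 4. Those at least 2-fold higher were 4, BBC3, SESN2, GADD45A (log2 ratio 1.28) and GDF15. Of these GDF15 alone was at 20 CPM in the reference, and BBC3 and SESN2 are in the ATF4 list as well. MDM2 (−0.58), BAX (−0.57), TIGAR (−0.18) and FDXR (−0.18), which p53 also activates, lay below the other non-primed cells, and CDKN1A was under 20 CPM at 1.91 against 1.18 CPM. In the BCL2 family 6 of 9 tested genes lay above, with a median of 0.33, and 3 were at least 2-fold higher, the BH3-only genes BBC3 and HRK (1.07) and the anti-apoptotic BCL2A1 (1.43). PMAIP1 (NOXA), another BH3-only gene, was at 96.7 against 52.1 CPM (0.89), and MCL1 and BCL2L1 had −0.10 and 0.33.

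Targets of NRF2, the regulator of oxidative defence, were above the other non-primed cells in 13 of 16 cases with a median of 0.37. SLC7A11, which the markers share with this list, and OSGIN1 (1.60) passed 2-fold, while HMOX1 (0.51), NQO1 (0.51), TXNRD1 (0.49) and GCLM (0.18) did not. Of genes of autophagy and the lysosome 14 of 15 were above, with a median of 0.34. GABARAPL1 stood at 25.7 against 10.3 CPM (1.32), which puts it among the compared genes through cluster 10 alone, and CTSD, a lysosomal protease, at 849 against 443 CPM (0.94). SQSTM1, an autophagy receptor, had 0.63. Genes of sterol and fatty acid synthesis were below in 15 of 15 cases with a median of −0.47. FASN, the fatty acid synthase, stood at 113 against 225 CPM (−0.98) and was lower in 5 of 5 wells without overlap. With the phase-weighted reference the sterol median was −0.37.

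In the heat shock list HSPA1A stood at a log2 ratio of 1.23, with 1.87 in r1 and 0.09 in r2, and HSP90AA1 (−0.51) and HSPA8 (−0.54) lay below. In the hypoxia and glycolysis list VEGFA was at least 2-fold higher and PFKFB4 at least 2-fold lower (−1.39), with a median of −0.01 over 15 genes. In the AP-1 and immediate early list MAFF (1.64) and MYC (1.13) passed 2-fold, and MYC did so in r1 (1.54) and not in r2 (−0.01). None of 12 tested melanocytic genes passed 2-fold, with a median of 0.03. MITF, the master regulator of the melanocyte lineage, was lower in 5 of 5 wells at 231 against 317 CPM (−0.46), but its ratio with the phase-weighted reference was −0.09. Of the 7 tested nuclear and small nucleolar host RNAs all were above, with EPB41L4A-AS1 (1.44), SNHG12 (1.30) and ZFAS1 (1.06) past 2-fold and MALAT1 at 0.96.

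The 15 genes with the highest ratios were the 6 markers and 9 others, and SLC3A2 among the 9 has been described above. Of the 15, BBC3, MMP1, MET, IFIT2, SLC7A11, AK5, LINC00882 and CREBRF reached 20 CPM in cluster 10 alone, so the ranking depends on that minimum. CREBRF, a negative regulator of the CREB3 stress factors, stood at 47.5 against 13.6 CPM with a ratio of 3.50. SNHG7 (320 against 97.6 CPM), LINC00520 (130 against 40.6 CPM) and LINC00882 (34.8 against 9.48 CPM) are noncoding RNAs with ratios of 3.28, 3.20 and 3.67, and for these and CREBRF the wells did not overlap. LINC00882 stood at 95.4 CPM in well 2 and between 26.9 and 38.8 CPM in the other 4 wells of cluster 10. MET, the receptor for hepatocyte growth factor, had a ratio of 4.29 but was lower than the other non-primed cells in well 2, at 1.83 against 3.01 CPM. IFIT2, an interferon-induced gene, had a ratio of 4.17 and was also lower in well 2, at 16.5 against 24.1 CPM.

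MMP1 and AK5 were high in primed cells too. MMP1, a collagenase, stood at 834, 41.6, 114, 194 and 167 CPM in wells 2, 3, 4, 7 and 8 of cluster 10, against 53.8, 11.5, 8.97, 10.7 and 11.8 CPM in the other non-primed cells and 2176 CPM in primed cells. Cluster 10 was higher in 5 of 5 wells, but its lowest well lay below the highest well of the other non-primed cells. AK5, an adenylate kinase, stood at 174 CPM in well 2 and between 10.0 and 45.4 CPM in the other 4 wells of cluster 10, and at 38.4 CPM in primed cells. Well 2, where both were highest, was the well with the most primed cells, 1059 of 1698. The part of primed cells or of their RNA in these values was not tested. In the list of 11 genes that mark primed cells, 3 reached 20 CPM and all 3 lay above the reference without passing 2-fold (median 0.21), and the list summed to 1152 CPM in cluster 10, 875 CPM in the other non-primed cells and 5651 CPM in primed cells. NT5E was at 28.0 against 24.2 CPM, EGFR and AXL were at 2.49 and 0.457 CPM in cluster 10 against 3.41 and 0.470 CPM in the other non-primed cells, and NGFR was at 6.44 against 0.857 CPM, with 30.1 CPM in primed cells.

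The 10 genes with the lowest ratios all act in DNA packaging or in mitosis. HIST1H1B, a linker histone made in S phase, stood at 14.1 against 110 CPM, and ASPM, a spindle protein, at 16.6 against 126 CPM. DLGAP5, CCNA2, SPC25, BUB1B, NCAPG, MKI67, TOP2A and KIF14 had ratios between 0.133 and 0.167. All 10 were lower in 5 of 5 wells. In the wider lists 20 of 21 S phase genes and 23 of 23 G2M genes were at least 2-fold lower, against 3.73% of all genes, and for 392 genes (6.67%) the highest well of cluster 10 lay below the lowest well of the other non-primed cells. With the phase-weighted reference none of the S phase genes and 6 of the G2M genes were at least 2-fold lower. Against cluster 4, which was itself mostly in G1, the G2M median was 0.41 and the S phase median −0.49. Of the 13 listed inhibitors of cyclin-dependent kinases and cyclins, 5 reached the minimum level and none of these passed 2-fold, with CDKN1B (p27) at 54.1 against 39.5 CPM and CCND1 at 550 against 440 CPM.

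Cells that show the markers together were then counted in the 2 other single-cell experiments, whose cells played no part in the cluster call. Every cell was thinned to 5000 UMIs, and the share with at least 4 of the 6 markers was taken. At that depth 102 of 466 cells of cluster 10 reached 4 markers (21.9%), against 50 of 9222 other non-primed cells (0.542%) and 56 of 2843 primed cells (1.97%). Over all cells of untreated WM989 the share was 208 of 12531 (1.66%), and over all cells of untreated WM983B it was 5 of 1449 (0.345%). In the treatment experiment of WM989, also over all cells, it was 0.434% and 0.244% in the Control libraries r1 and r2, from 18 and 9 cells. In the same order it was 0.0518% and 0.0692% with PI3Ki, from 2 and 4 cells, and 0.0739% and 0.0178% with TGFB1, from 4 and 1 cells. With TGFBRi it was 0.287% and 0.463%, from 15 and 29 cells. The PI3Ki and TGFB1 libraries lay below both Control libraries, and the TGFBRi libraries overlapped with them. A comparison of 2 libraries with 2 cannot give an exact p under 0.33, so the 4 treatments were also compared together, by an exact permutation test of the 8 libraries chosen after these values were seen. It gave p = 0.0571 (adjusted over the 3 marker counts used here 0.0571), and 0.167 when libraries were permuted only within r1 and r2 (exact permutation, adjusted 0.167). The paper describes 2 parallel samples as replicates, each divided at random over the 4 treatments. If r1 and r2 are these samples, only the permutation within r1 and r2 follows that design. The deposited samples of this experiment are named Mix and Primed, and which of them is r1 or r2 is not given, so the 2 libraries of a treatment may differ in their sort. The paper's account of this experiment names no sort of primed cells.

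The experiments differ in more than treatment. ASNS stood at 1.29 CPM in WM983B and between 0.967 and 2.41 CPM in the 8 treatment libraries, against 21.6 CPM in the other non-primed cells of the first experiment, and the 3 tables were made separately. By the paper, the first experiment also used another version of the 10x kit and a longer read 2 than the later experiments. The treated cells had gone through more divisions. The part of these differences in the values was not tested. The order of TGFBRi and Control depended on how many markers were asked for and on depth. Thinned to 3000 UMIs, at least 4 markers were found in 0.0765% and 0.0956% of TGFBRi cells, from 4 and 6 cells, and in 0.0241% and 0.0542% of Control cells, from 1 and 2 cells. With at least 3 of the 6, the TGFBRi libraries (2.87% and 2.57%) lay above both Control libraries (1.74% and 1.36%). With ASNS left out and at least 3 of the other 5, the TGFBRi libraries (2.68% and 2.32%) again lay above Control (1.66% and 1.25%), and the PI3Ki and TGFB1 libraries lay below Control in both counts. The exact permutation test over the 4 treatments gave p = 0.0286 for each of these counts (adjusted 0.0429), and 0.0833 within r1 and r2 (adjusted 0.125), where no p below 0.0417 is possible. By the count without ASNS, cluster 10 stood at 33.3% and the other non-primed cells at 1.57%. Over all cells, untreated WM989 stood at 3.34% and WM983B at 2.48%. WM983B as a whole thus lay below untreated WM989 as a whole by this count and by the count of 4 of 6. It lay above the other non-primed cells only by the count without ASNS, but those cells are a part of WM989 without cluster 10 and primed cells. Summed over the 6 markers, levels were 116 and 106 CPM in Control, 86.8 and 89.2 CPM with PI3Ki, 96.1 and 90.1 CPM with TGFB1 and 148 and 141 CPM with TGFBRi. Among the 6 markers SLC7A11 differed most as a ratio, with 10.1 and 12.4 CPM in Control, 2.48 and 3.21 CPM with TGFB1 and 16.6 and 16.3 CPM with TGFBRi. In CPM the widest range over the 8 libraries was that of NUPR1, from 21.3 to 50.5.

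Of the 13 clusters of the treatment experiment, cluster 10 of that experiment, which shares only its number with the one described here, had the highest summed marker level, 221 CPM in 807 cells, all of which carry the authors' label of primed cells, with DDIT3 at 87.5 CPM and TRIB3 at 50.9 CPM. Its share of cells with at least 4 markers was 9 of 791 cells with enough UMIs (1.14%). In WM983B the 4 clusters ranged from 132 to 160 CPM over the 6 markers. No cluster of either experiment came near the 852 CPM of the cluster described here.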

How the data were processed

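Single-cell RNA was measured in 1 sample of untreated WM989, 1 of untreated WM983B and 8 libraries of treated WM989. The authors aligned reads to hg38 with Cell Ranger, joined lanes without depth normalization, kept cells by genes detected and percent mitochondrial reads and clustered them in Seurat, with replicates integrated where batch effects were seen. The deposited matrices hold raw UMI counts per gene and cell. The deposited cell labels hold percent values for mitochondrial and ribosomal RNA (percent.mt and percent.rb) and cell cycle score columns with phase calls. The Cell Ranger version and annotation were not given in the sources used here. No doublet caller was run, and the upper limit on genes per cell was the authors' own. Chromatin peak lists of sorted cells were not used here, and 0 columns of per-sample values were left unmapped.

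Counts were summed over cells of a group and divided by the group's total to give counts per 1000000 UMIs (CPM). Genes with at least 20 CPM in either group were compared by the ratio of CPM, with 2-fold as the limit for a call, and these ratios carry no test because the clusters were made from the same genes. Wells with at least 10 cells of the cluster gave the spread. In the phase-weighted reference, other non-primed cells were weighted to the G1, S and G2M shares of cluster 10. Co-detection used cells thinned at random to 10000 UMIs, or 5000 across experiments, which left out 33 treated cells. Depth and barcode share were compared over wells by two-sided exact sign-flip permutation tests. Intervals are exact 95% Clopper-Pearson intervals, and they and the limit for a count of 0 (3 counts) cover counting error only. Sequences came from RefSeq (GRCh38.p14) and gene positions from GENCODE v44.

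The genes named are the 6 markers, the 15 highest and 10 lowest ratios, and up to 6 members of each of 25 lists by size of ratio. Further list members, given to complete a pathway or a count, were chosen after their values were seen, and some members are not reported here. The cluster, markers and lists were chosen with earlier results of these data known. Alternatives changed the CPM minimum, weighting of cells and wells, depth, phase, replicate, well and reference cluster. Scripts were tested on simulated data. Python 3.11.15, numpy 2.4.6, scipy 1.17.1 and pandas 2.3.3 were used. Shares of cells with the markers were compared over the 4 treatments by exact permutation of the 8 libraries, without and with r1 and r2 as a block, a test chosen after the values were seen.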

Additional observations from a re-analysis of the deposited data

Results flagged for a closer look

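Well 2, with 16 cells of cluster 10, stood apart from the other 4 wells compared in 6 of 34 measures examined. The limit used marks about 1 in 20 by chance for independent measures with equally precise wells. The other 4 wells held 46 to 222 cells of the cluster and the measures are related, so the 6 cannot be judged by that rate. NUPR1 was at 441 CPM, MMP1 at 834 CPM, AK5 at 174 CPM and LINC00882 at 95.4 CPM in that well, each above the rest. TRIB3 was at 104 CPM and the share of cells with a lineage barcode at 68.8%, both below the rest. Well 2 also held the most primed cells, 1059 of 1698, and the part of that in these values was not tested.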

How the results depend on the processing

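No marker ratio, ATF4 median, depth difference or barcode difference changed sign under its alternatives. The balance of calls did turn, from 101 higher and 219 lower to 82 and 29 with the phase-weighted reference, 141 and 61 against cluster 4, 135 and 118 in r2, and 3402 and 844 with no minimum. Of the recomputed values 153 were counted as unchanged and 60 were not. The 153 include values with well 1, 5 or 6 left out, which could hardly change, as these wells held 2, 0 and 2 cells of the cluster. The limit was their error (the spread between wells or libraries or a counting interval, or 1.5 times for a count). Depth and barcode differences were instead counted as unchanged when their sign held and their p stayed on the same side of the limit. With 5 wells no p below 0.0625 is possible, so that count could not tell a change in size. The depth difference moved from −0.22 to −0.06 with the phase-weighted reference and was still counted as unchanged. The share of 4.81% was 6.25% in r1, 2.58% in r2, 3.72% of all cells, and 3.99% to 5.37% with each well left out (4.12% without well 3). The count of higher genes, 101, was 228 at 5 CPM, 49 at 50 CPM and 3402 with no minimum, where genes of few UMIs enter, and 90 to 102 without each well. The count of lower genes, 219, was 332, 114 and 844 at those minimums, 29 with the phase-weighted reference, 118 in r2, 61 against cluster 4, and 207 to 228 without each well. Among markers, DDIT3 was 3.52 in r2 and 9.23 against cluster 4, TRIB3 7.28 against cluster 4, NUPR1 2.87 against cluster 4 (from 4.83, within its error), and BBC3 4.11 as a mean over wells and 3.24 in r2. The ATF4 median of 1.55 was 1.91 at 50 CPM, 1.70 in r2, 1.78 against cluster 4, and 1.50 to 1.59 without each well. The median share over treatment libraries, 0.159%, was 0.989% with at least 3 of 6 markers, 0.935% with 3 of 5 without ASNS (chosen after seeing the data), 0.0120% thinned to 3000 UMIs and 0% with at least 5 of 6. Depth differences ran from −0.25 to −0.21 and barcode differences from −5.77 to −2.25 points without each well. Apart from the weighting and minimums, whose construction changes the genes or cells compared, the cause was not tested. The permutation p over the 4 treatments, 0.0571 with 4 of 6 markers, was 0.0286 with 3 of 6 and with 3 of 5 without ASNS; with a replicate block of r1 and r2 these were 0.167, 0.0833 and 0.0833. The depth and barcode tests were paired within wells.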
